A study of Mus musculus with 74 samples.

Results

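Hox genes were followed in the adipocytes of brown and white fat of the mouse. They are the homeobox transcription factors of the Hoxa, Hoxb, Hoxc and Hoxd clusters, and a gene was taken as a member if its symbol was Hox, a cluster letter and a number. The rule found 39 of the 55487 genes in the RNA table, with 11 in the Hoxa cluster on chromosome 6, 10 in Hoxb on chromosome 11, 9 in Hoxc on chromosome 15 and 9 in Hoxd on chromosome 2. Accessible chromatin regions were taken as Hox regions where the authors' annotation names such a gene, which gave 29 of 42572 regions in brown adipose tissue (BAT) and 23 of 25050 in inguinal white adipose tissue (WAT).

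All RNA and accessibility libraries came from mice of the strain given as Adiponectin-Cre:NuTRAP. Adiponectin-Cre acts in adipocytes, where it switches on the NuTRAP allele, which tags nuclei and ribosomes with fluorescent proteins, so that both groups carry the same alleles and differ in the depot. Tagged ribosomes were pulled down with an antibody to GFP for RNA-seq, and sorted nuclei were used for ATAC-seq, which counts cuts of a transposase in open chromatin. BAT and WAT were each sampled at Zeitgeber times (ZT, hours from lights on) 1, 5, 9, 13, 17 and 21, with 3 libraries per depot and time except 2 RNA libraries for BAT at ZT17. Binding of the clock factor BMAL1 was measured by ChIP-seq in inguinal WAT of C57BL6J mice at ZT4. Age, sex, feeding and whether replicates were separate animals are not stated in the labels, so the p-values cover library-to-library spread alone.

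Vertebrate Hox genes lie in clusters in which the genes are ordered by paralog number, and genes of one number in different clusters are close relatives. During development the low-numbered genes are used from the head end of the trunk backwards and the high-numbered ones towards the tail, and cells keep much of this code into adult life. Interscapular brown fat lies near the shoulders and inguinal fat near the hind limb. Polycomb complexes hold silent Hox genes shut, trithorax proteins such as Kmt2a keep active ones open, retinoic acid receptors and Cdx factors set the code in the embryo, and PBX and MEIS proteins bind DNA together with Hox proteins.

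Promoter sequences were available for 22 of the 39 members, as 24 windows. The 4 shown here reach from 250 bases upstream of a start site to the base before it, 5′ to 3′ on the gene's strand, as given by RefSeq on GRCm38.p6, the assembly called mm10. Hoxa3 (chr6:52213068-52213317, minus strand) is shown because it holds a region that was called open in BAT, whose 151 bases are in capitals and run from -212 to -62 counted from the start site. The numbering of region starts is not stated in the sources used here, so the capital nearest the start site is uncertain. Hoxa5 (chr6:52204588-52204837, minus strand) and Hoxa10 (chr6:52240855-52241104, minus strand) are shown because the former led the Hox RNA of BAT and the latter had no count there, and nothing is in capitals in either. In Hoxd10 (chr2:74691641-74691890, plus strand) the capitals mark the E-box CACGTG, the motif that BMAL1 with its partner CLOCK is known to bind, from -73 to -68.
Hoxa3: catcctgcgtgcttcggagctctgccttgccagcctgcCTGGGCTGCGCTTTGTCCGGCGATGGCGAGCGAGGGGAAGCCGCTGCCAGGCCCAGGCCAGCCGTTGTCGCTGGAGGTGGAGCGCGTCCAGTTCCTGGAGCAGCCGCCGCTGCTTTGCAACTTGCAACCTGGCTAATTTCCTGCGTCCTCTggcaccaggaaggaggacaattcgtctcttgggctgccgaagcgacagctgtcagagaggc
Hoxa5: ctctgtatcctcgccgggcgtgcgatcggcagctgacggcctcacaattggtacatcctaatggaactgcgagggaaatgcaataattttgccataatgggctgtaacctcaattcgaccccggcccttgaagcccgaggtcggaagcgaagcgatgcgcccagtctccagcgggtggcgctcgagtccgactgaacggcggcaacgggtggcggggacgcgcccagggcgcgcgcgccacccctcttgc
Hoxa10: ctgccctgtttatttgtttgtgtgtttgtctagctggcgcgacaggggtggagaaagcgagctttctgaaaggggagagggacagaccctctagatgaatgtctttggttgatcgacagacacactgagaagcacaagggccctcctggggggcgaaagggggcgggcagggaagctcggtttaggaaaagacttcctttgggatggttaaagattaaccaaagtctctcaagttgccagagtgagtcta
Hoxd10: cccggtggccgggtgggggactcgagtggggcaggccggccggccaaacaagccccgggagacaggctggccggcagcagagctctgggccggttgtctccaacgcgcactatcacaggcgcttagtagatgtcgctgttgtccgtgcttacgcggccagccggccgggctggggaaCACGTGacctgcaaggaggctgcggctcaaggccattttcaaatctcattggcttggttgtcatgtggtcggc

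The Hox clusters also hold microRNA genes, and 3 BAT regions are named for them in the authors' annotation. One lies at chr2:74726671-74726821 and is named Mir10b, and it was the only region of either depot within the span of the Hoxd genes. The other 2, at chr15:103020532-103020682 and chr15:103021152-103021302, are named Mir615. The mature forms are shown with the seed (bases 2 to 8), which pairs with targets, in capitals. They come from chr2:74726074-74726096 and chr15:103014969-103014990 on the plus strand (RefSeq, GRCm38.p6), their seeds differ, and microRNA levels were not analysed here.
mmu-miR-10b-5p: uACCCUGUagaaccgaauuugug
mmu-miR-615-3p: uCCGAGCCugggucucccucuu

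The RNA totals were 4980153 to 46274478 counts for BAT and 1301518 to 6481177 counts for WAT. The tags in regions were 3959384 to 12811242 for BAT and 1623006 to 5294923 for WAT. The median share of mitochondrially encoded RNA was 9.64% in WAT and 0.280% in BAT, and loci that collect ribosomal RNA took 5.26% to 66.0% of WAT counts and 0.813% to 4.64% of BAT counts. The summed level of 7 adipocyte genes ran from 31265 to 67871 CPM (counts relative to the library total, scaled by TMM) in BAT and from 8440 to 74269 in WAT, and 5 of 5 tested brown adipocyte genes were higher in BAT. Most of the adipocyte sum was Fabp4, with means of 39502 CPM in BAT and 31447.5 in WAT. The next highest were Lipe at 1146 CPM in BAT and Cidec at 770 in WAT. Markers of other cells were present mainly in WAT: 9 fibroblast or preadipocyte genes summed to 14.4 to 85.8 CPM in BAT and 166 to 1119 in WAT, with none at 0, and all 7 tested were higher in WAT. Likewise 7 lymphocyte genes summed to 0 to 0.485 CPM in BAT and to 20.4 to 203 in WAT. Endothelial, pericyte and macrophage genes were higher in WAT for 4 of 4, 3 of 3 and 3 of 4 tested, and erythroid genes for 3 of 4, while muscle genes were higher in BAT for 3 of 6. The part of these cells and of RNA quality in the Hox results was not tested. Fewer cells of a type and less RNA per cell cannot be told apart in such libraries.

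Per length, Hoxa5 was the most abundant Hox RNA of BAT and Hoxc8 that of WAT. These levels are TPM (counts per length, relative to the library total) from the authors' tables, and TPM compares genes within a library. The tables list 22 members for each depot, but not the same ones. Hoxa2 is among those listed for BAT alone, and Hoxa10 and Hoxc10 are listed for WAT alone. Sums and shares are over the members listed for that depot. In BAT the listed members summed to 141 TPM ± 11.1 (SD, n = 17), of which Hoxa5, a regulator of the cervical and upper thoracic skeleton and of the lung, gave 59.3 TPM ± 6.07, or 42.2% ± 3.44. Hoxb4 followed at 17.6 TPM ± 2.63, Hoxa7 at 13.2 TPM ± 2.53, Hoxc8 at 10.2 TPM ± 5.35, Hoxb3 at 9.04 TPM ± 1.55 and Hoxc6 at 7.45 TPM ± 1.21. Hoxa5 stood apart, while Hoxc8 lay within 1 SD of both Hoxa7 and Hoxb3 by its own wide spread.

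In WAT the listed members summed to 945 TPM ± 374 (SD, n = 18). Hoxc8, which specifies thoracic identity and has been described as a repressor of brown adipogenesis, gave 690 TPM ± 332, or 70.8% ± 8.87. Hoxc9 at 90.6 TPM ± 37.6 and Hoxb4 at 69.0 TPM ± 20.2 came next and lay within each other's spread, followed by Hoxa7 at 20.1 TPM ± 8.33 and Hoxc6 at 17.3 TPM ± 6.19, which did too. Hoxa5 was at 8.59 TPM ± 4.19, close to Hoxc10 at 7.76 TPM ± 3.21 and Hoxb7 at 7.54 TPM ± 4.23.

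The shares by cluster and by position differed accordingly. Hoxa genes gave 58.1% ± 3.36 of the summed Hox TPM in BAT and 4.53% ± 2.12 in WAT. Hoxc genes gave 17.7% ± 3.20 and 83.9% ± 6.37, Hoxb genes 21.3% ± 1.91 and 10.7% ± 4.27, and Hoxd genes 2.92% ± 0.82 and 0.89% ± 0.63 (SD over 17 BAT and 18 WAT libraries). The Hoxa and Hoxc shares did not overlap between depots, since the lowest BAT library had 52.0% Hoxa and the highest WAT library 11.4%, and the highest BAT library had 24.2% Hoxc and the lowest WAT library 71.7%. Paralogs 1 to 5 gave 74.0% ± 2.67 in BAT and 11.1% ± 4.43 in WAT, paralogs 6 to 8 gave 25.3% ± 2.60 and 77.2% ± 5.87, and paralogs 9 to 13 gave 0.68% ± 0.20 and 11.8% ± 2.48. None of these 3 ranges overlapped either.

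**Figure D1:**
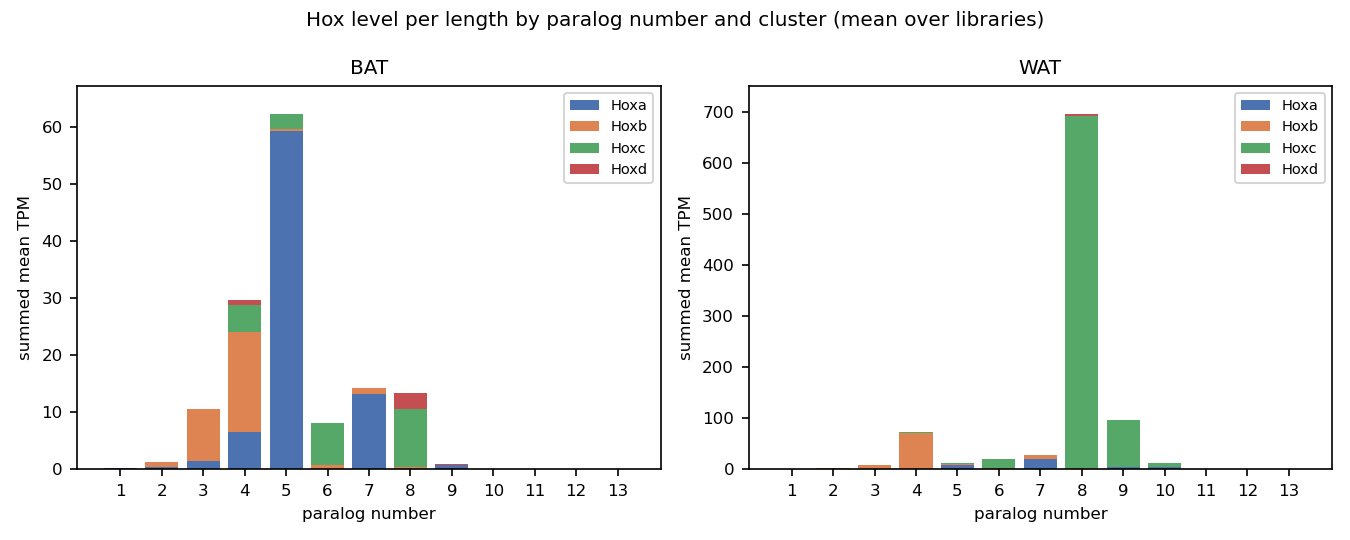
Mean TPM of the Hox genes by paralog number (horizontal axis), stacked by cluster, in BAT (left, 17 libraries) and WAT (right, 18 libraries), with a separate vertical axis in TPM for each depot. Hoxa5 makes the tallest bar in BAT at 59.3 TPM and Hoxc8 in WAT at 690 TPM, and genes above paralog 8 are near 0 in BAT.

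The depot comparison asked which Hox genes differ between the brown and the white adipocytes at equal time. A gene was called if edgeR gave an adjusted p under 0.05 and a difference of at least 2-fold. 19 of the 39 members had enough counts to be tested, and 5 were higher in BAT, against 23.1% of the 10999 genes tested, and 8 were higher in WAT, against 24.2%, or 13 in either direction against 47.3%. The remaining 6 were not called. All 5 genes higher in BAT were of paralogs 3 to 5, namely Hoxa3, Hoxa4, Hoxa5, Hoxb3 and Hoxc4, while the 8 higher in WAT were Hoxb4 and 7 genes of paralogs 6 to 10. The median log2 difference of BAT minus WAT was -0.68 over the 19 tested members and 0.04 over all genes tested. Of the 19, 9 passed the filter on low counts in each depot taken by itself, 6 passed in BAT only and 3 in WAT only. Hoxb6 passed in neither depot by itself. Some of the tested members thus entered through the depot where they are high, and their count is a description.

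**Figure D2:**
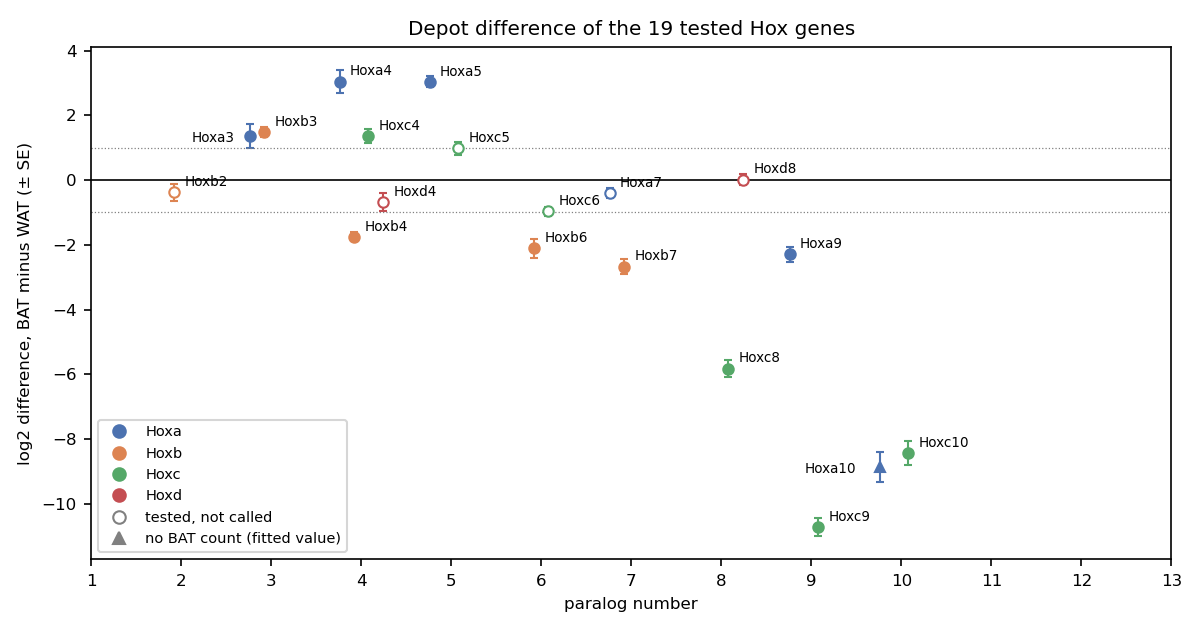
Log2 difference of BAT minus WAT (vertical axis, with SE bars) against paralog number (horizontal axis) for the 19 tested members, coloured by cluster, with filled symbols for called genes and a triangle for Hoxa10, whose fitted value rests on no BAT count. The 5 called genes above 0 lie at paralogs 3 to 5, and the 4 genes of paralogs 9 and 10 all lie below -2.

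Among the genes higher in BAT, Hoxa5 (ENSMUSG00000038253, chr6:52201754-52204587) had a lowest, median and highest library of 97.1, 149 and 196 CPM in BAT and of 5.72, 12.6 and 29.3 CPM in WAT. Every BAT library was above every WAT library. The log2 difference was 3.04 ± 0.17 (SE, n = 17 and 18, edgeR adjusted p = 1.81e-18), or 8.21-fold. Its neighbour Hoxa4 (ENSMUSG00000000942, chr6:52189682-52191703), a gene of the cervical region, ran from 9.40 over 12.4 to 16.7 CPM in BAT and from 0 over 0.585 to 4.80 CPM in WAT, again with no overlap. It differed by 3.05 ± 0.35 on the log2 scale (edgeR adjusted p = 6.12e-10). Hoxa3 (ENSMUSG00000079560, chr6:52169059-52213067), needed for thymus and parathyroid, had 2.14, 5.14 and 6.76 CPM in BAT and 0, 1.63 and 4.82 CPM in WAT as lowest, median and highest library. These ranges overlapped, and the log2 difference was 1.37 ± 0.37 (edgeR adjusted p = 0.00108).

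Hoxb3 (ENSMUSG00000048763, chr11:96307101-96347930), a hindbrain gene, ran from 11.4 over 20.7 to 31.4 CPM in BAT and from 2.50 over 6.52 to 9.94 CPM in WAT. All BAT libraries were above all WAT libraries, and the log2 difference was 1.5 ± 0.15 (edgeR adjusted p = 1.42e-11). Hoxc4 (ENSMUSG00000075394, chr15:103018097-103036856) ran from 8.76 over 12.5 to 16.6 CPM in BAT and from 0 over 3.76 to 9.04 CPM in WAT, so that only the ends of the ranges met. Its log2 difference was 1.36 ± 0.21 (edgeR adjusted p = 3.56e-07). Hoxa4, Hoxa5 and Hoxb3 were thus the 3 members without overlap on this side, where 13.7% of all tested genes had none. All 5 had the higher mean in BAT at 6 of 6 times. The annotated span of Hoxa3 shares 2022 bases with Hoxa4, 2834 with Hoxa5 and 3815 with Hoxa6, and that of Hoxb3 shares 3372 with Hoxb4, so their counts are uncertain where reads could belong to either gene.

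On the WAT side, the largest differences were those of Hoxc8, Hoxc9, Hoxc10 and Hoxa10. Hoxc8 (ENSMUSG00000001657, chr15:102990539-102994275) had 343, 1222 and 4617 CPM in WAT as lowest, median and highest library and 6.26, 23.3 and 81.8 CPM in BAT. The lowest WAT library was above the highest BAT library, and the log2 difference was -5.83 ± 0.27 (SE, n = 17 and 18, edgeR adjusted p = 1.44e-20). Hoxc9 (ENSMUSG00000036139, chr15:102977032-102984444), a thoracic gene, ran from 87.4 over 165 to 586 CPM in WAT and from 0 over 0.108 to 0.634 CPM in BAT, where 17 libraries together held 27 counts. It differed by -10.72 ± 0.28 (edgeR adjusted p = 1.21e-27), or 1683-fold.

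Hoxc10 (ENSMUSG00000022484, chr15:102966796-102971898), a lumbar and hind limb gene that has been described to suppress browning of white fat, ran from 5.59 over 10.7 to 29.2 CPM in WAT. In BAT it had 7 counts in 4 of 17 libraries, with a highest library of 0.451 CPM, and the fitted log2 difference was -8.43 ± 0.37 (edgeR adjusted p = 5.15e-21). Hoxa10 (ENSMUSG00000000938, chr6:52231197-52240854), which patterns the hind limb and the uterus, ran from 1.40 over 5.23 to 12.6 CPM in WAT and had no count in any BAT library. Against a floor of 3 counts over the BAT group (0.0133 CPM) its WAT mean was at least 447-fold higher (edgeR adjusted p = 5.47e-14). These were the 4 members with every WAT library above every BAT library, a pattern seen in 5.39% of all tested genes.

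The other 4 genes higher in WAT overlapped between depots. Hoxb4 (ENSMUSG00000038692, chr11:96318267-96321638), known for its action in blood stem cells, was abundant in both, with 72.5, 161 and 290 CPM in WAT and 37.3, 57.8 and 95.5 CPM in BAT as lowest, median and highest library. It differed by -1.75 ± 0.14 on the log2 scale (edgeR adjusted p = 2.20e-14), opposite to Hoxb3, with which it shares bases, and to its paralogs Hoxa4 and Hoxc4. Hoxa9 (ENSMUSG00000038227, chr6:52223097-52227370), also a blood stem cell factor, ran from 2.10 over 10.4 to 34.9 CPM in WAT and from 1.31 over 2.66 to 4.53 CPM in BAT (-2.29 ± 0.23, edgeR adjusted p = 2.25e-11). Hoxb7 (ENSMUSG00000038721, chr11:96285604-96290163) ran from 2.4 over 7.76 to 18 CPM in WAT and from 0.722 over 1.47 to 2.47 CPM in BAT (-2.67 ± 0.22, edgeR adjusted p = 1.37e-13). The ranges of Hoxa9 and Hoxb7 met only at their ends. Hoxb6 (ENSMUSG00000000690, chr11:96292814-96301569), low in both, ran from 0 over 3.42 to 10.8 CPM in WAT and from 0.196 over 0.882 to 2.23 CPM in BAT (-2.11 ± 0.30, edgeR adjusted p = 8.33e-08). All 8 genes had the higher mean in WAT at 6 of 6 times.

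The 6 tested members that were not called lie at paralogs 2 to 8. Hoxa7 (ENSMUSG00000038236, chr6:52215623-52218573) had 24, 33.3 and 45.6 CPM in BAT and 16.7, 36.5 and 77.1 CPM in WAT as lowest, median and highest library, which is a wide overlap (log2 difference -0.40 ± 0.16, edgeR adjusted p = 0.0211). Hoxc6 (ENSMUSG00000001661, chr15:102998226-103011882) had 10.7, 14.8 and 20.2 CPM in BAT and 10.3, 25.1 and 56.1 CPM in WAT. It passed the test but not the fold (-0.97 ± 0.15, edgeR adjusted p = 2.80e-07), and the ratio of means changed sign between times, with WAT higher at 5 of 6. Hoxc5 likewise fell just short of the fold at 0.99 ± 0.20 (edgeR adjusted p = 3.58e-05), with BAT higher at 6 of 6 times. Hoxb2 and Hoxd4 gave -0.37 ± 0.27 and -0.68 ± 0.28, and Hoxd8 gave 0.02 ± 0.17 (edgeR adjusted p = 0.926), with means of 9.99 CPM in BAT and 8.39 in WAT.

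The 20 members that were not tested had means of at most 3.21 CPM in either depot. Hoxb1 and Hoxc13 had no count in any of the 35 libraries. Of all 39 members 12 were at 0 in BAT, where 3 counts over the group would be 0.0133 CPM, and 10 of these had counts in WAT, all of paralog 9 or above except Hoxd3. In WAT 3 members were at 0, of which Hoxd1 had 1 count in BAT. Counted by position, 13 of 15 members of paralogs 1 to 5 had a count in some BAT library and 13 in some WAT library. All 8 members of paralogs 6 to 8 had counts in both depots. Of the 16 members of paralogs 9 to 13, 6 had a count in BAT and 15 in WAT, and 1 in BAT and 5 in WAT had a mean of at least 1 CPM. In WAT, Hoxa11, Hoxa13, Hoxb13, Hoxc12, Hoxd11, Hoxd12 and Hoxd13 had 1 to 6 counts, for each gene in 1 library only. In BAT, Hoxa13 had 2 counts in 1 library. BAT libraries were the deeper ones.

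**Figure D3:**
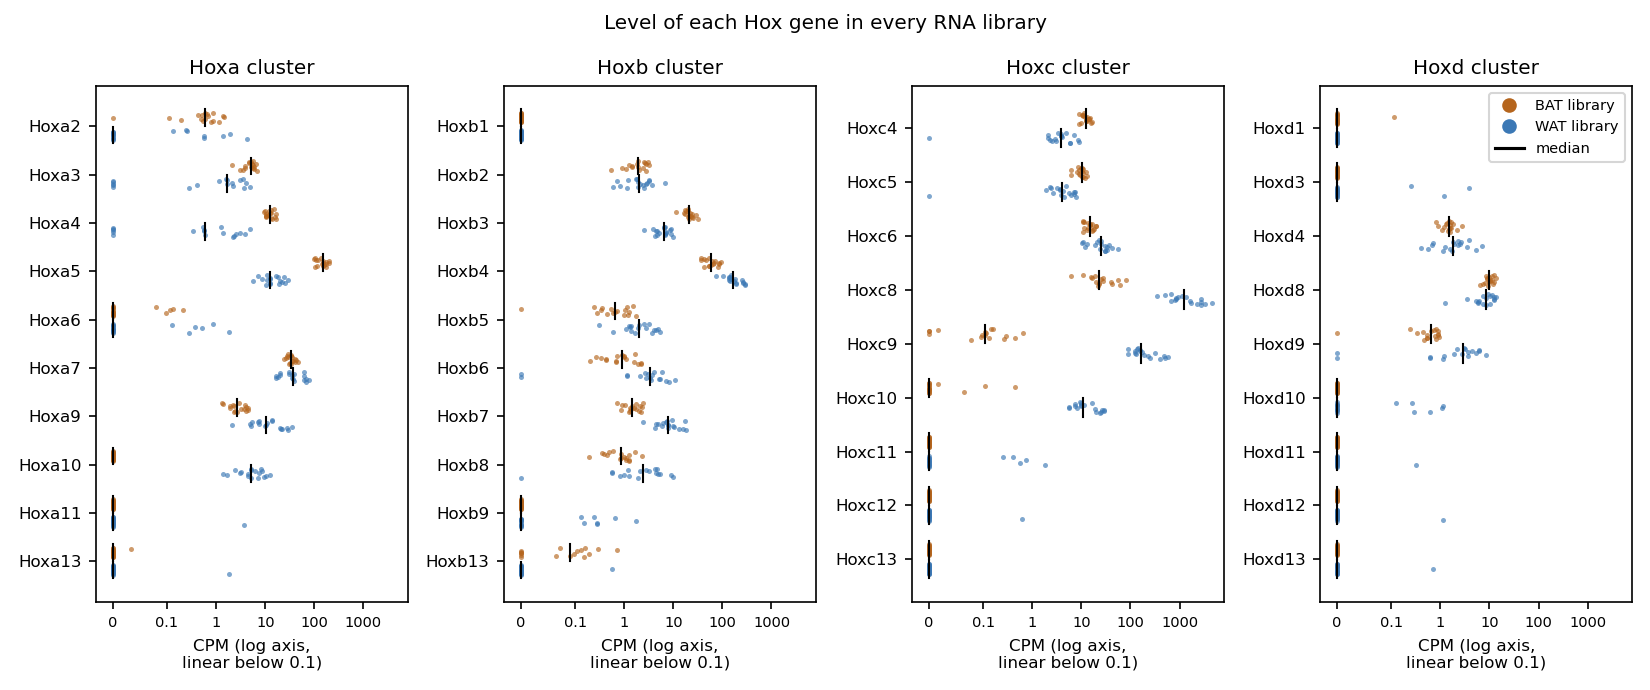
CPM of 38 of the 39 members in every BAT and WAT library, 1 panel per cluster in order of paralog number, on a log axis that is linear below 0.1, with a line at each depot's median. Hoxa10, Hoxc9 and Hoxc10 sit at or near the bottom of the axis in BAT and between 1.40 and 586 CPM in WAT, while Hoxa4 and Hoxa5 are higher in BAT.

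Of the factors that act with or on Hox genes, the lists were chosen with earlier results of these data known and are described by counts, beside the 23.1% of all tested genes that were higher in BAT and the 24.2% that were higher in WAT. Among cofactors, 2 of 6 tested were higher in WAT and none in BAT (median log2 difference -0.69, against 0.04 over all genes). Meis2, a homeobox partner of Hox proteins, had means of 3.33 CPM in BAT and 9.43 in WAT, without overlap (-1.72 ± 0.18, edgeR adjusted p = 7.18e-11), and Pbx3 had 1.74 and 3.63 CPM (-1.30 ± 0.27). Of 25 Polycomb genes tested, 4 were higher in BAT and 7 in WAT (median 0.25), shares near those of all genes. Cbx6 was at 35.5 CPM in BAT and 121 in WAT (-1.90 ± 0.14), while Jarid2, Pcgf5 and Eed, the last a core subunit of the H3K27 methyltransferase complex, were higher in BAT by 1.06 ± 0.14, 1.07 ± 0.14 and 1.01 ± 0.14.

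Among 14 trithorax and related genes, 1 was higher in BAT and 6 in WAT (median -0.69). The H3K4 methyltransferases Kmt2a and Kmt2b, the first of which is known to maintain Hox transcription, differed by -2.0 ± 0.12 and -2.29 ± 0.17, with means of 13.6 and 11.6 CPM in BAT and 45.9 and 50.0 in WAT, and Psip1, which tethers this complex to chromatin, by -2.61 ± 0.16. Dpy30, a shared subunit, went the other way by 2.07 ± 0.18, and none of these 4 overlapped between depots. Of 7 tested retinoid and Cdx genes, 3 were higher in BAT and 3 in WAT (median -0.21). The retinoid X receptors Rxrb (1.25 ± 0.09) and Rxrg (1.77 ± 0.15) were higher in BAT, and the retinoic acid synthesis enzyme Aldh1a1 (-3.68 ± 0.19) and the receptor Rarg (-1.38 ± 0.23) were higher in WAT. Other factors of body position were higher in WAT for 6 of 10 tested and in BAT for 2 (median -1.81). Emx2 (-6.82 ± 0.32), Shox2 (-4.06 ± 0.18), Nr2f2 (-2.16 ± 0.18) and Nr2f1 (-1.98 ± 0.20) were among the former.

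Of the genes beside or within the Hox clusters, 12 were tested, and 6 were higher in BAT and none in WAT (median 1.18). Hibadh and Skap2, which flank Hoxa, had means of 251 and 146 CPM in BAT and 73.9 and 45.6 in WAT (1.53 ± 0.12 and 1.52 ± 0.13). Mtx2, which flanks Hoxd, had 151 and 19.3 CPM (2.81 ± 0.16). Skap1, a T cell adaptor gene that flanks Hoxb, was too low to be tested and is named after its values were seen, with 3 counts in all of BAT and 463 in WAT, where its mean was 5.82 CPM. The sources used here do not say whether counting used strand, so reads of antisense transcripts and of the Hox genes they overlap cannot be told apart.

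Across the day, few Hox transcripts passed the test for a 24 h rhythm, which fits a cosine and a sine of time and gives a peak-to-trough size on the log2 scale. On simulated counts this test found 47% of rhythms of size 1 and 85% of size 2 in BAT. In WAT it found 0% and 32%. The simulation gave a rhythm to 100 genes of each size. In the data 1154 of 12394 BAT genes and 1242 of 12703 WAT genes were called. The adjustment was therefore stricter in the simulation, and its shares do not give the power of the test on the data. A member without a call can still have a rhythm. In BAT 1 of 20 tested members was called (edgeR adjusted p under 0.05), against 9.31% of all genes. The called gene was Hoxb6, with 2.15, 1.95 and 2.23 CPM in the libraries of ZT21 and 0.432, 0.679 and 0.196 CPM at ZT13. Means were 1.18, 0.646, 0.609, 0.436, 1.14 and 2.11 CPM from ZT1 to ZT21, so that ZT21 was above every library of the other times. The fitted size was 2.09 ± 0.44 with a peak at ZT21.4 (edgeR adjusted p = 0.0195), and without BAT ZT21 replicate 1 the adjusted p was 0.0503. WAT gave means of 4.19, 2.25, 1.44, 2.08, 4.64 and 8.74 CPM for Hoxb6, also with ZT21 the highest (2.34 ± 0.72, edgeR adjusted p = 0.0819). In the authors' deposited table of JTK_CYCLE results, Hoxb6 was the only member with a q-value under 0.05 in either depot, at 0.0376 in BAT, where 4.33% of 14055 genes passed, and 0.0331 in WAT, where 0.136% of 12541 did.

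In WAT 3 of 22 tested members were called, against 9.78% of all genes. All 3 are genes of paralogs 9 and 10. Hoxa9 had 34.9, 19.7 and 27.9 CPM at ZT17 and 20.5, 21.5 and 29.0 CPM at ZT21. Its libraries of the other times lay between 2.10 and 13.8 CPM, below all 6 of these. The size was 2.12 ± 0.40 with a peak at ZT19.8 (edgeR adjusted p = 0.00597). Hoxc10 had 28.7, 26.0 and 29.2 CPM at ZT17, 25.3, 20.1 and 24 CPM at ZT21, and 5.59 to 18.7 CPM at the other times. Here too the 6 libraries of ZT17 and ZT21 were the highest, with a size of 1.77 ± 0.34 and a peak at ZT19.1 (edgeR adjusted p = 0.00693). Hoxc9 had 484, 230 and 586 CPM at ZT17 and 495, 250 and 396 CPM at ZT21, against means of 123, 144, 204 and 135 CPM from ZT1 to ZT13, where the highest library reached 313. Its size was 1.46 ± 0.38 with a peak at ZT18 (edgeR adjusted p = 0.0364), and the call was lost when any 1 of 13 of the 18 libraries was left out, with an adjusted p of up to 0.137.

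Hoxc8 had means of 506, 1127, 1478, 1026, 3040 and 2767 CPM from ZT1 to ZT21 in WAT and was not called (1.51 ± 0.49, edgeR adjusted p = 0.103). At ZT9 its libraries were at 840, 831 and 2762 CPM, the last being 1 of the 3 WAT libraries with the most ribosomal RNA. Without those 3 libraries, 7 members were called, and Hoxc8 was among them. The sum of the 7 adipocyte genes, which is mostly Fabp4, was highest at the same times. Its means in WAT were 34567, 11420, 22590, 15539, 58346 and 60205 CPM from ZT1 to ZT21, and fibroblast genes summed to 946, 528, 596, 467, 269 and 432 CPM. Ribosomal RNA loci took 9.57%, 40.5%, 30.1%, 19.1%, 30.7% and 18.7% of WAT counts at these times and mitochondrial RNA 17.2%, 10.3%, 15.1%, 20%, 6.05% and 4.12%. The part of these differences in the WAT time courses was not tested.

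Whether rhythms differ between BAT and WAT was asked with interaction terms of depot and time. A difference was called for 2 of 19 members, against 12.9% of all genes. Hoxa9 in BAT had means of 1.85, 2.81, 2.63, 3.79, 4.25 and 2.46 CPM from ZT1 to ZT21, with a size of 1.00 ± 0.30 and a fitted peak at ZT13.9 (edgeR adjusted p = 0.0779), against a size of 2.12 ± 0.40 and ZT19.8 in WAT. The curve of the difference had an amplitude of 1.10 ± 0.26 on the log2 scale (edgeR adjusted p = 0.0181). For Hoxc10 it was 2.25 ± 0.65 (edgeR adjusted p = 0.0449), which rests on the 7 BAT counts, and without BAT ZT9 replicate 1 the adjusted p was 0.619. Hoxb6 gave no such call (edgeR adjusted p = 0.917).

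**Figure D4:**
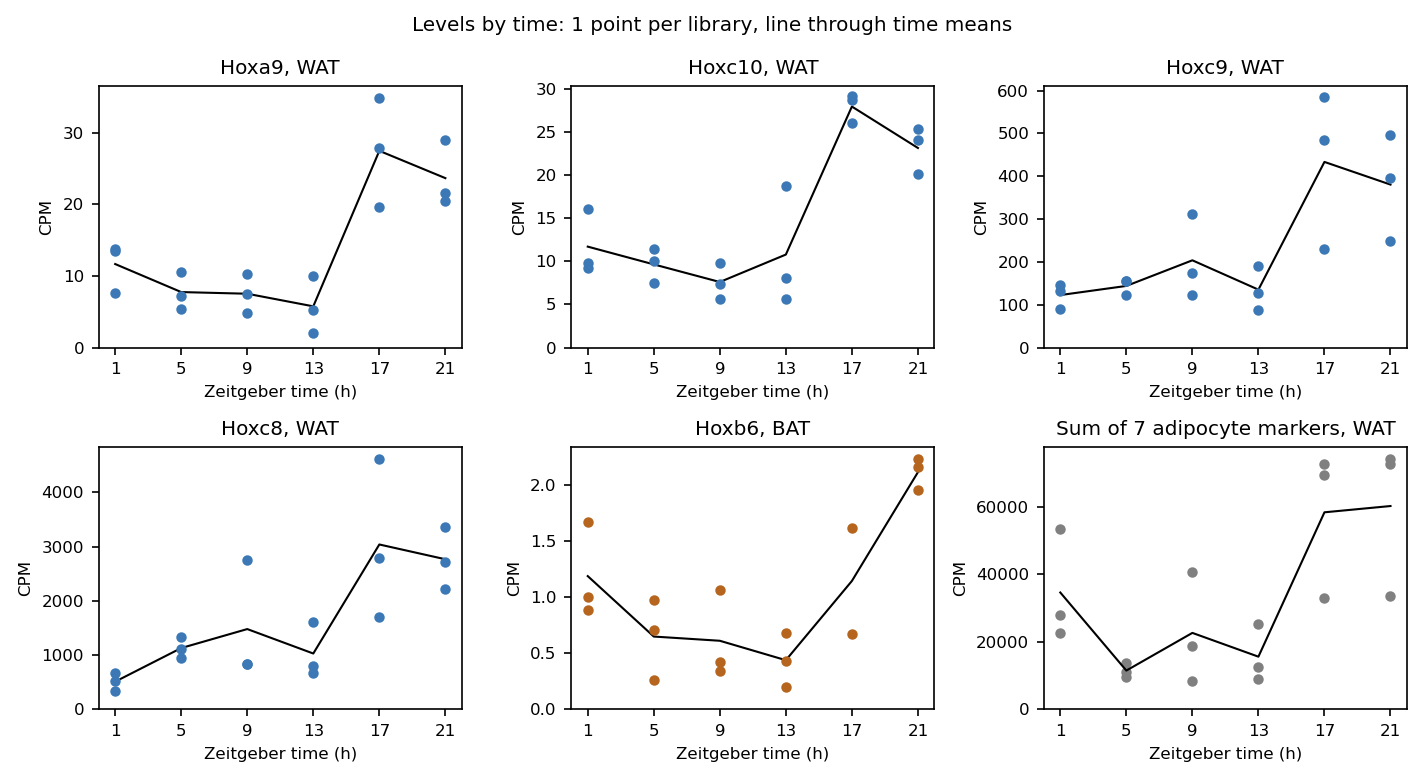
CPM (vertical axes, linear) against Zeitgeber time in hours, with a point per library and a line through the time means, for Hoxa9, Hoxc10, Hoxc9 and Hoxc8 in WAT, Hoxb6 in BAT and the sum of 7 adipocyte markers in WAT. The WAT lines are all highest at ZT17 and ZT21, including that of the adipocyte marker sum, which is mostly Fabp4. Hoxb6 in BAT is highest at ZT21.

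Accessible regions were named for Hox genes by the authors' annotation, also where they lay outside the clusters. The 29 BAT regions comprised 9 named for Hoxa genes, 7 for Hoxb and 13 for Hoxc, and the 23 WAT regions 9, 5 and 9, with none for Hoxd in either. Between the first and last gene of these clusters lay 9, 5 and 7 of them in BAT and 9, 4 and 6 in WAT. The regions named 14 genes per depot, and 9 regions in each lay within 1 kb of a start site. With an overlap of at least 75 bp, 15 of the 29 BAT regions (51.7%, against 50.8% of all BAT regions) had a counterpart in WAT and 16 of the 23 WAT regions (69.6%, against 86.3%) had one in BAT. Regions were called separately in each depot by the authors, and the BAT libraries are deeper. When BAT was limited to its strongest regions, as many as WAT has, 14 Hox regions remained there.

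Some regions at start sites were in the list of one depot alone. In BAT a region at Hoxa5 (chr6:52204413-52204563, 99 bases after the start site) had 37.3 CPM ± 3.86 (SD, n = 18), ranging from 29.8 to 45.3, and had no counterpart in WAT. The same held for 2 regions at Hoxa3, at +280 with 24.3 CPM ± 4.02 and at -137 with 13.0 CPM ± 1.85, the latter being the capitals shown above, and for regions at -70 of Hoxc6 (11.7 CPM ± 1.71) and -931 of Hoxc4 (11 CPM ± 1.75). The strongest BAT Hox region lay at the end of Hoxa4 (chr6:52189246-52189396) with 40.9 CPM ± 2.92, higher than 86.2% of BAT regions, and was BAT-only as well. The strongest BAT region named for a Hoxc gene lay outside the cluster, 34.9 kb from Hoxc4 (chr15:103069231-103069381). It had 39.4 CPM ± 5.38, ranging from 28.1 to 47.5. It had no counterpart by this overlap, although a WAT region begins just beyond it (chr15:103069398-103069548). In WAT the regions without a counterpart included the start of Hoxc10 (chr15:102966610-102966760, at -111) with 33.2 CPM ± 4.04, ranging from 26.8 to 40.4, and that of Hoxa10 (chr6:52240475-52240625, at +304) with 19.2 CPM ± 3.19. Hoxa7 at +986 (29.3 CPM ± 3.83) and Hoxa3 at -347 (34.9 CPM ± 4.93) were also in the WAT list alone. The Hoxa3 start thus had a region in the list of each depot. This WAT region (chr6:52213339-52213489) begins just beyond the BAT region at -137 (chr6:52213129-52213279). Thus Hoxa5 had a start region in BAT alone, and Hoxa10 and Hoxc10 in WAT alone. A region that is missing from a list is one that was not called there, and its tags in the other depot were not analysed here.

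At the 16 pairs of shared regions the tags could be compared between depots with libraries scaled over all 21626 shared regions. BAT was higher in 2, against 3.58% of all shared regions, and WAT in 6, against 3.56%, or 8 in either direction against 7.13%. The median log2 difference was -0.52 over the 16 pairs and -0.01 over all shared regions. In all 8 called pairs the 18 BAT and 18 WAT libraries did not overlap. How often this holds over all shared regions was not counted, so it describes these pairs alone. The regions higher in WAT lie at or near Hoxa7, Hoxa9, Hoxb5, Hoxb1 and Hoxc8, and 1 of those higher in BAT lies near Hoxc4.

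At Hoxa9, the region in the first exon (chr6:52227003-52227153, +292) had 15.0, 18.7 and 22.8 CPM in BAT and 30.6, 40.5 and 49.0 CPM in WAT as lowest, median and highest library, a log2 difference of -1.09 ± 0.06 (SE, n = 18 and 18, edgeR adjusted p = 1.03e-20). The region at +1192 ran from 10.4 over 12.9 to 17.8 CPM and from 25.4 over 34.0 to 46.5 CPM (-1.39 ± 0.07, edgeR adjusted p = 9.82e-22). Both Hoxa9 regions were thus higher in WAT, as was Hoxa9 RNA. Upstream of Hoxa7 (chr6:52221782-52221932, -3284) the ranges were 11.3 to 22.1 CPM in BAT and 32.1 to 55.6 in WAT (-1.35 ± 0.08, edgeR adjusted p = 5.41e-20), while Hoxa7 RNA was not called. The region upstream of Hoxb5 (chr11:96301908-96302058) ran from 12.4 to 28.6 CPM in BAT and from 36.5 to 63.9 in WAT (-1.34 ± 0.08, edgeR adjusted p = 4.10e-19). An intergenic region 48.0 kb from Hoxb1 ran from 8.16 to 16 and from 22.8 to 35.6 CPM (-1.41 ± 0.08, edgeR adjusted p = 1.75e-19), though Hoxb1 RNA had no count.

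Downstream of Hoxc8 (chr15:102999313-102999463, +8849) the libraries had 25.1, 31.7 and 41.2 CPM in BAT and 61.4, 71.9 and 87.4 CPM in WAT. This was the strongest Hox region of WAT in its own table (65.5 CPM ± 6.48, SD, n = 18), and it differed by -1.16 ± 0.05 (edgeR adjusted p = 6.70e-25), far less than Hoxc8 RNA did. By position it lies within the annotated span of Hoxc6 (chr15:102998226-103011882), whose RNA was not called. The region at -2894 of Hoxc8 differed by -0.57 ± 0.08 and was not called. In the other direction, a region 51.6 kb from Hoxc4 (chr15:103085894-103086044) ran from 40.8 over 49.8 to 64.9 CPM in BAT and from 15.3 over 20.3 to 33.5 in WAT (1.23 ± 0.06, edgeR adjusted p = 9.20e-22).

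Regions at the starts of Hoxa4 and Hoxb4 were shared and not called. At Hoxa4 (-239) the difference was -0.36 ± 0.07, with 21.9 to 38.2 CPM in BAT and 26.2 to 47.1 in WAT, so accessibility was higher in WAT by less than 2-fold (edgeR adjusted p = 4.39e-06) while Hoxa4 RNA was higher in BAT. At Hoxb4 (+360) it was -0.47 ± 0.07, and at +1325 -0.20 ± 0.06. A region near Hoxb13, the strongest of the Hoxb cluster in BAT at 18.2 CPM ± 2.99, differed by -0.16 ± 0.07.

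**Figure D5:**
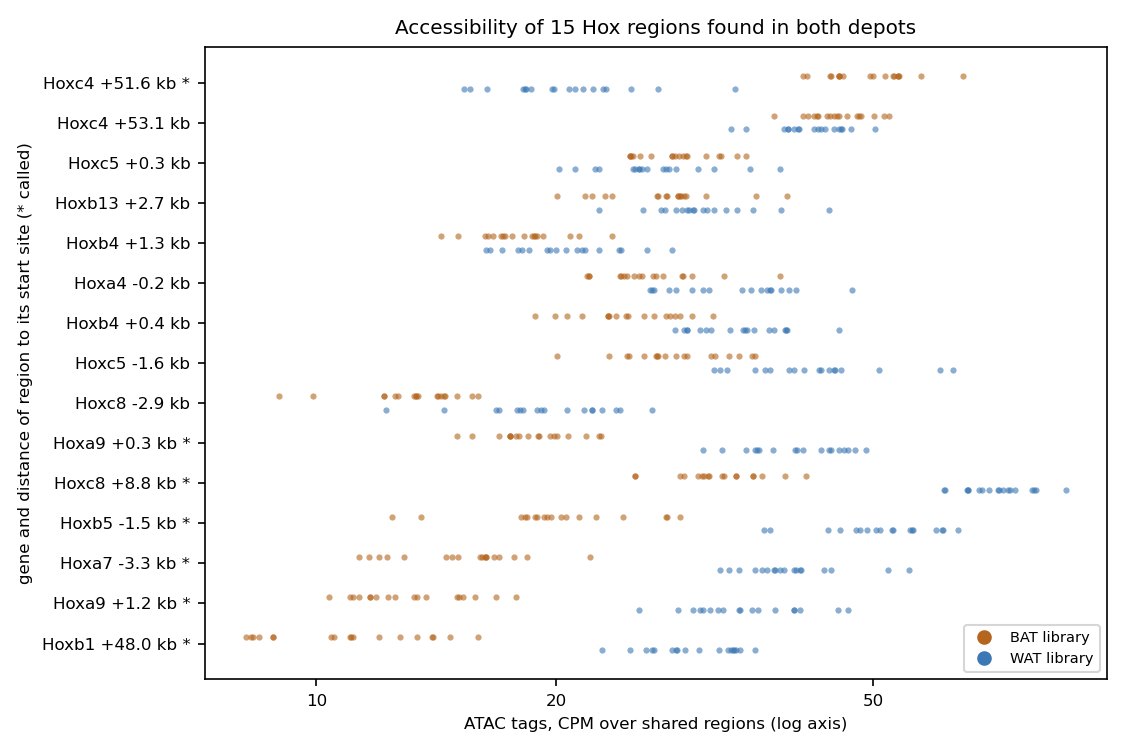
CPM of 15 of the 16 pairs of shared Hox regions in every BAT and WAT ATAC library on a log axis, with each pair labelled by its gene and its distance from the start site in kb. The 6 pairs called higher in WAT and the 1 shown that was called higher in BAT are marked with an asterisk.

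Of the regions, 3 of 29 in BAT and 1 of 23 in WAT passed the test for a 24 h rhythm, against 18.9% and 16.2% of all regions. A region 56.1 kb from Hoxc4 (chr15:103090408-103090558) had BAT means of 13.5, 16.7, 18.4, 19.7, 22.0 and 20.1 CPM from ZT1 to ZT21 (size 0.53 ± 0.14, peak ZT15.4, edgeR adjusted p = 0.0290). The start of Hoxa4 (-239) had 18.4, 22.0, 17.2, 16.2, 16.2 and 15.2 CPM (0.43 ± 0.12, peak ZT4.9, edgeR adjusted p = 0.0437), highest at ZT5. The region at -1529 of Hoxb5 had 15.0, 15.4, 11.6, 10.8, 12.4 and 16.2 CPM (0.61 ± 0.16, peak ZT0.3, edgeR adjusted p = 0.0336), lowest at ZT13. In WAT a region 35.1 kb from Hoxc4 (chr15:103069398-103069548) had 50.4, 55.7, 56.3, 54.4, 43.4 and 39.4 CPM (0.45 ± 0.13, peak ZT7.9, edgeR adjusted p = 0.0400). Each of these 4 calls was lost when some libraries were left out 1 at a time (6, 12, 4 and 7 of 18), with adjusted p-values of up to 0.0614, 0.140, 0.0798 and 0.0958 in the order given. The starts of Hoxa9, Hoxc10 and Hoxa10 in WAT had sizes of 0.13 ± 0.13, 0.15 ± 0.13 and 0.32 ± 0.17 and no call.

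Of the 10368 BMAL1 peaks of inguinal WAT, 9 were named for a member, with authors' peak scores of 3.94 to 6.85 against a median of 6.16 and a highest score of 201 over all peaks. Those of Hoxb13 and Hoxb1 were above that median and the other 7 below it. Peaks at start sites were those of Hoxc10 (-90, score 5.14), Hoxa4 (-318, 4.96), Hoxc13 (-256, 4.28) and Hoxd10 (-177, 3.94). Hoxb13, Hoxb1, Hoxa7, Hoxb5 and Hoxb9 named the rest, with scores of 6.85, 6.33, 5.31, 4.11 and 4.11. The Hoxd10 peak (chr2:74691608-74691820) ends within the E-box shown above (chr2:74691818-74691823), so that 3 of its 6 bases lie in the peak. Hoxd10 RNA had 18 counts in 6 WAT libraries and none in BAT.

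In the promoter windows, from 250 bases before to 50 after the start site, the 24 windows of members had a median GC content of 57.7% and a median of 14.5 CpG pairs, against 52.7% and 7 over all 32851 windows. The E-box CACGTG, which reads the same on both strands, was in 5 of 24 (20.8%, against 7.15% of all windows), all of Hoxd genes. Of the Hoxb genes only Hoxb1, Hoxb4 and Hoxb8 had a window, and of the Hoxc genes only Hoxc4. The clusters thus cannot be compared by these windows. TGATTNAT, a form of the site bound by PBX with Hox proteins, was searched on both strands and found in 2 (8.33%, against 3.22%), at Hoxa2 and at 1 of the Hoxd11 starts. The Hoxd11 window held both motifs, and such matches describe letters in a window, not bound sites.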

How the data were processed

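Per the labels' protocols, RNA bound to tagged ribosomes was pulled down and made into directional RNA-seq libraries, and sorted nuclei into Omni-ATAC libraries. The authors deposited estimated counts per Ensembl gene for 35 libraries, without normalization. Tools in the submitters' processing notes are RSEM 1.3.0, STAR 2.7.5, Bowtie2 2.4.1, limma, DESeq2 and HOMER, with the mm10 build and no roles. The sources used here do not say whether counting used strand. The authors also deposited TPM per library in tables of JTK_CYCLE results with a p-value and a q-value per gene or region. Per the file headers, the ATAC tables that the authors deposited give raw tag counts for 1 region set per depot and a HOMER peak score. The deposited BMAL1 table gives a HOMER peak score for 1 peak set, per the file headers.

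Estimated counts were rounded, and 55394 of 55487 identifiers were matched to symbols. One column of the RNA table that belongs to no listed sample was not used. Counts were scaled by TMM, filtered by filterByExpr and tested by quasi-likelihood in edgeR 4.0.16 (R 4.3.3), with p-values adjusted by Benjamini-Hochberg over all features tested. BAT was compared with WAT over all RNA libraries with time as a factor. Rhythms were fitted per depot as a 24 h cosine and sine. SEs were derived from the quasi-likelihood F. In the TPM tables missing values were taken as 0, and shares were computed per library and then averaged. Regions were paired with bedtools 2.31.1 at an overlap of at least 75 bp, and libraries of the shared regions were scaled together. Gene spans come from RefSeq on GRCm38.p6. Plots used matplotlib 3.10.9 in Python 3.11.15.

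Described in full were members with a mean of at least 10 CPM in a depot or a call in an RNA comparison (15 members), regions with a call, the strongest region per cluster and depot, and regions within 1 kb of the start of such a member. Of the other gene lists, up to 4 called genes with the highest mean were named. The members and lists were chosen with earlier results of these data known. Alternatives were RLE size factors, no filter, DESeq2 1.42.0, mitochondrial and ribosomal loci left out before scaling, the replicate number as a block, the 3 WAT libraries with the most ribosomal RNA left out, time as a factor, other overlaps and each library left out. Replicates were checked to be distinct, with a lowest chi-square per gene of 9.06. Replicate numbers showed no visible pairing of BAT with WAT libraries: of 17 pairs of one time and number, 2 had a correlation of deviations over 0.1 (range -0.36 to 0.27). With so few libraries per depot and time, this cannot show whether both depots came from the same animals. The tests were checked on simulated data. Some items, among them 1 member, are not reported here by name and enter only counts and sums.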

Additional observations from a re-analysis of the deposited data

Results flagged for a closer look

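By a test of the difference itself, a rhythm difference between BAT and WAT was called for 2 of 19 tested Hox genes. The share called over all tested genes was 12.9%. In WAT the adipocyte marker sum was also highest at ZT17 and ZT21, with means of 58346 and 60205 CPM, and its part was not tested. For Hoxa9 the interaction of depot with time had an edgeR adjusted p of 0.0181, with means from 1.85 to 4.25 CPM over the 6 times in BAT and from 5.76 to 27.5 CPM in WAT, and the call was kept in all 41 alternatives run (adjusted p up to 0.0407). For Hoxc10 the edgeR adjusted p was 0.0449, with 7 counts in all of BAT and means from 7.61 to 28.0 CPM in WAT. The Hoxc10 call was lost in 17 of 41 alternatives, among them 15 of 35 that left out 1 library, and the adjusted p was 0.619 without BAT ZT9 replicate 1, the library that holds the highest BAT level of the gene at 0.451 CPM.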

How the results depend on the processing

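All 13 members called between depots kept their direction and call under all 41 alternatives. Hoxc6, just under 2-fold, was called in 10 of the 41, and its log2 difference over all 41 ran from -1.06 to -0.74. The 8 called shared regions kept theirs wherever they could be computed. Without a filter on low counts, 16 members were higher in WAT, with 4049 genes higher in BAT and 7657 in WAT, and the median log2 difference of all genes moved by -0.51. With RLE size factors or DESeq2 that median moved by -0.08. Rhythm counts depended on the processing. In BAT, DESeq2 called 3 members and 2455 genes, and edgeR with time as a factor called 0 members and 620 genes (Hoxb6 adjusted p = 0.0691). Leaving out 1 library gave 0 to 6 members and 472 to 3371 genes, with 6 members without BAT ZT21 replicate 2 and 0 without BAT ZT21 replicate 1. In WAT, no filter called 6 members and 3046 genes, DESeq2 5 and 2096, time as a factor 5 members, and leaving out the 3 libraries with the most ribosomal RNA 7 and 2662. Leaving out 1 library gave 2 to 6 members and 463 to 2522 genes, the highest of both without WAT ZT9 replicate 3. Hoxa9 and Hoxc10 kept their WAT call in all 25 alternatives. The Hoxc9 adjusted p was 0.0571 with RLE size factors and 0.0535 with mitochondrial and ribosomal loci left out. For the rhythm difference between depots, the replicate block left 1 member (Hoxc10 adjusted p = 0.0516, and 0.0527 without a filter) and the 3 libraries left out gave 4, with 3637 genes. No filter gave 2156 genes and DESeq2 2690, and leaving out 1 library 1 to 3 members and 573 to 3006 genes. In ATAC, leaving out 1 library gave 0 to 3 rhythmic Hox regions in BAT and 0 to 1 in WAT, and with the replicate block there were 2 in WAT, while the Hoxa4 region in BAT had an adjusted p of 0.0561. The numbers share no stated source, and of 40 same-numbered pairs at different times in BAT 19 correlated over 0.1, of 45 in WAT 16. An overlap of at least 120 bp left 1 shared region higher in BAT, and with equal numbers of regions BAT had 14 Hox regions. The cause of these changes was not tested beyond the fewer features or libraries that an alternative uses. No result reversed. WAT libraries held fewer counts than most BAT libraries, which limits the precision for low members there.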

Other observations

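Counted by position and not by the named gene, the span from the first to the last Hoxa gene (105.5 kb) held 14 accessible regions in BAT and 12 in WAT. The Hoxb span (173.9 kb) held 5 and 4, the Hoxc span (115.7 kb) 9 and 7, and the Hoxd span (96.9 kb) 1 and 0. Regions in the Hoxa span that carry another name included those named for Gm15050 (1 in each) and Hoxaas3 (1 in BAT). Hoxd8 RNA was present in both depots, at 2.97 TPM ± 0.84 in BAT and 3.88 TPM ± 1.99 in WAT (SD, n = 17 and 18), although no region of either depot was named for a Hoxd gene.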
